A study of Mus musculus with 6 samples.

Results

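The surface antigens by which mammary epithelial cells are sorted, and the enzyme and antigens that mark their stem and progenitor cells, were followed as a set of 9 genes, *Cd24a*, *Kit*, *Epcam*, *Prom1*, *Ly6a*, *Aldh1a3*, *Cd44*, *Cd55* and *Procr*. They were chosen by symbol as non-integrin markers, and each of the 9 had 1 row among the 18537 known-gene clusters of the deposited expression table. The table holds RNA-seq values of luminal progenitor cells from the mammary glands of adult nulliparous mice, 3 libraries from *Robo1+/+* mice (replicates gh03, gh09 and gh15) and 3 from *Robo1-/-* mice (replicates gh06, gh12 and gh18), with the cells of 2 animals in each library. The labels describe the animals as littermates, which would give both genotypes *Robo1+/-* parents. The authors describe the females of their study as either littermates or matched by age. The knockout carries the tm1Matl allele in every tissue of the animal, and *Robo1* loss was therefore not limited to the sorted cells. Cells were depleted of CD45, Ter119, CD31 and BP-1 positive cells and then sorted as CD24lo CD29+ CD61+, so that the protein product of *Cd24a* was itself part of the gate in both genotypes.

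These markers work at the cell surface in different ways. CD24, EpCAM, prominin 1 and CD44 are adhesion or membrane glycoproteins used to separate epithelial compartments, KIT is a receptor tyrosine kinase of luminal progenitors, and ALDH1A3 is an intracellular retinaldehyde dehydrogenase behind the enzyme activity that marks progenitor cells. Ly6a (Sca-1) and prominin 1 are known mainly from hormone-sensing luminal cells of the mouse gland, and the protein C receptor encoded by *Procr* from a rare basal cell population.

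Of the 9 markers, *Cd24a* was the one whose values separated the genotypes, being higher in all 3 *Robo1-/-* libraries by 1.59-fold (95% interval 1.14 to 2.24). Separation in this direction was found in 4.83% of all tested genes, and after correction for GC content replicate gh18 overlapped the *Robo1+/+* libraries (unadjusted p = 0.17 from limma). *Prom1* had the largest estimated difference, 1.80-fold higher in *Robo1-/-* luminal progenitors, but its interval ran from 0.70 to 4.61 and its values overlapped. *Kit* and *Epcam* were close to level between the genotypes, and *Procr* was at the limit of detection in both. None of the markers had an adjusted p under 0.05 (limma, Benjamini-Hochberg adjustment over 13692 tested genes).

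Promoters are shown for the markers at the ends of the range of spread between libraries, *Kit*, whose highest library exceeded its lowest least (1.34-fold), and *Prom1* and *Cd44*, in which this ratio was largest (6.19-fold and 3.87-fold). RefSeq promoter sequence was matched for 6 of the 9 markers (*Kit*, *Epcam*, *Prom1*, *Cd44*, *Cd55* and *Procr*), and not for *Cd24a*, *Ly6a* or *Aldh1a3*. Where RefSeq listed 2 starts (*Kit* and *Prom1*), the one farther upstream was taken. Each run is the 250 bases before the annotated start, read on the strand of the gene in GRCm38.p6 from RefSeq, and capitals mark matches on either strand to TGGGAA, the core bound by the Notch effector RBPJ, or to AGATAA, which factors of the GATA family recognize. The positions are chr5:75574737-75574986 on the plus strand for *Kit*, chr5:44101737-44101986 on the minus strand for *Prom1* and chr2:102901666-102901915 on the minus strand for *Cd44*.

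Kit: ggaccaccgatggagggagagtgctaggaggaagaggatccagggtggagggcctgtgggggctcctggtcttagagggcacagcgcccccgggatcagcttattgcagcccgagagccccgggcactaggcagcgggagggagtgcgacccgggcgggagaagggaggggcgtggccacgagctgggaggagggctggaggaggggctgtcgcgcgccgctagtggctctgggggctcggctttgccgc

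Prom1: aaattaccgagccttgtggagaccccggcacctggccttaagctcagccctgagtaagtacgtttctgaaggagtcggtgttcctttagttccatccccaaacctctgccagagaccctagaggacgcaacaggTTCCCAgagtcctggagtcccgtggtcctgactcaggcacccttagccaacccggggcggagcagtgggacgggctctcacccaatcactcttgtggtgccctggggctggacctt

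Cd44: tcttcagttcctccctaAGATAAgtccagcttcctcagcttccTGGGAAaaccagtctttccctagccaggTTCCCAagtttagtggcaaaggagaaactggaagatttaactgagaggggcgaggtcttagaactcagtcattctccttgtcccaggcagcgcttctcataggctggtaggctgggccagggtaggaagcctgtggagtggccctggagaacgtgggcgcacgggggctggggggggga

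The *Kit* promoter was the richest in G and C of the 6 (70.8%, against a median of 52.4% over 32851 mouse promoters of the same length) and held no match. The *Prom1* promoter (59.2% GC) held 1 match to TGGGAA, written TTCCCA because it lies on the other strand. The *Cd44* promoter (56.4% GC) held 2, one on each strand, and 1 match to AGATAA. In all promoters, TGGGAA was found in 21.6% and AGATAA in 9.99%. Neither TTCNNNGAA, a spacing recognized by STAT factors (7.02% of all promoters), nor TATAAA (12.4%) occurred in any of the 6. The promoters of *Epcam*, *Cd55* and *Procr* held none of the 4 motifs. STAT patterns with another spacing were not searched. A STAT match can share letters with an RBPJ match, and the matches printed here do not overlap. These matches describe the letters of a short window, and no binding was measured.

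The deposited values are normalized read counts, that is, read counts divided by 1 size factor per library. The libraries held between 9727191 and 17433868 recovered reads, and 1 read was worth between 0.784 and 1.46 normalized counts. The value of *Robo1* itself was 289, 574 and 541 in the *Robo1+/+* and 130, 214 and 177 in the *Robo1-/-* libraries, lower in each of the latter. The *Robo1-/-* mean was 37.1% of the *Robo1+/+* mean (limma, adjusted p = 0.86). *Robo1-/-* replicate gh18 stood apart. In gh18, the log2 distance of a gene from the other 5 libraries fell as the GC content of its transcript rose (Spearman's rho = −0.81 over 12526 genes, which are not independent replicates) whereas in the remaining libraries it rose with GC content (0.17 to 0.61). The mean against which each remaining library was set included gh18, so these positive values are not independent of the trend in gh18. Because of that trend, each tested marker is also given after a correction for GC content and without gh18, and other genes after the correction only. Luminal keratins were abundant, as were luminal progenitor genes such as *Trf* (764 RPKM, reads per kilobase of exon and per 1000000 recovered reads) and *Mfge8* (555). The 2 highest transcripts known from mature luminal cells were abundant too (*Areg* at 809 and *Fgb* at 716), whereas the highest basal genes were *Itga6* (47.9) and *Tagln* (13.0). Both luminal lists also held genes at low levels, such as *Esr1* of the mature list (10.8) and *Itgb3* of the progenitor list (9.23). These 2 were chosen after their values were seen. By these levels the sorted cells were luminal, and the highest mature luminal genes reached levels near those of the highest progenitor genes.

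*Cd24a* (kgCluster1710; NCBI37/mm9 chr10:43298975-43304068, plus strand) encodes a small mucin-like glycoprotein held in the membrane by a lipid anchor. Its normalized read counts were 10674.5, 14373 and 14034 in the wild-type and 21142, 20715 and 19935 in the knockout libraries. The lowest *Robo1-/-* library lay above the highest *Robo1+/+* library, and the 3 *Robo1-/-* values were close together. The means were 13027 ± 2045 (SD, n = 3) and 20598 ± 612 (SD, n = 3). The log2 fold change was 0.67 (standard error 0.21, 95% interval 0.18 to 1.16), with an unadjusted p of 0.014 and an adjusted p of 0.86 from limma. A two-sided exact permutation test gave p = 0.10, the smallest that 3 libraries against 3 allow. The GC correction moved the difference most. The log2 fold change of *Cd24a* was then 0.40 (unadjusted p = 0.17 from limma), and gh18, whose value went from 0.35 above the log2 mean of the other 5 libraries to 0.37 below it, overlapped the *Robo1+/+* libraries. With gh18 left out the log2 fold change was 0.70 (unadjusted p = 0.010), and with gh18 left out and the GC correction made it was 0.66 (unadjusted p = 0.017). Nearly all of the *Cd24a* transcript (99.9% of 1813 bases) also aligned to sequence on chromosome 14, the longest stretch being 1329 bases at 96.5% identity (chr14:120043155-120044468, within the gene *Hs6st3*). How reads that map to more than one place were counted is not given in the sources used here, so the level of *Cd24a* is uncertain. In sorted bulk RNA, more cells of a type and more RNA per cell cannot be told apart.

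**Figure D1:**
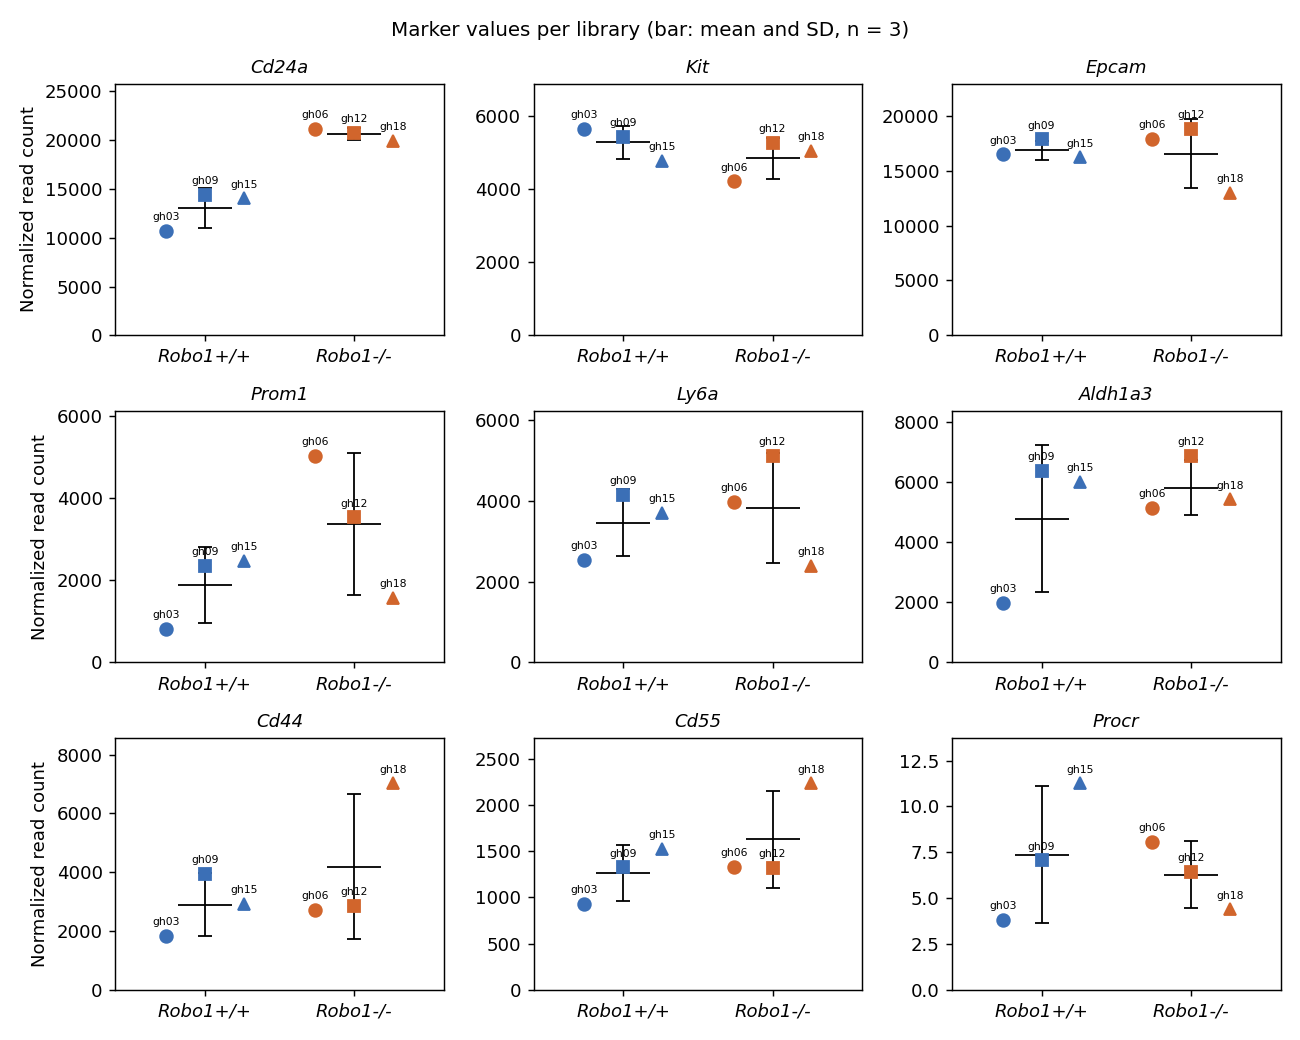
Normalized read count (vertical axis, from 0, a separate scale per marker) in each of the 6 libraries for the 9 markers, *Robo1+/+* in blue and *Robo1-/-* in orange. Each labelled point is 1 library and the black lines are the mean and SD (n = 3). The 3 *Robo1-/-* values of *Cd24a* (19935 to 21142) lie above all *Robo1+/+* values, and the other 8 markers overlap.

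*Epcam* (kgCluster11448; chr17:88035319-88050446, plus strand) encodes the epithelial cell adhesion molecule, which all mammary epithelial cells carry. It had normalized read counts of 16493, 17858 and 16213 in the wild-type and 17883, 18808 and 13014 in the knockout libraries. The *Robo1-/-* group held both the highest library and the lowest, gh18. *Epcam* had a log2 fold change of −0.04 (SE 0.22, 95% interval −0.56 to 0.48), limma gave an adjusted p of 0.96, and the exact permutation p was 1, two-sided. It turned to 0.12 with the GC correction and also to 0.12 without gh18, and to 0.00053 without gh09, so its sign was not settled. The ratio of *Cd24a* to *Epcam*, looked at after the values were seen, was 0.647, 0.805 and 0.866 in the wild-type and 1.18, 1.10 and 1.53 in the knockout libraries. The genotypes did not overlap in this ratio of normalized read counts before GC correction (two-sided exact permutation test, p = 0.10). No lower p can arise from 3 libraries per genotype. After the correction, gh18 differed from the log2 mean of the other 5 libraries by −0.37 in *Cd24a* and 0.04 in *Epcam*. For gh03 the values were −0.59 and −0.06, and for gh15 −0.10 and −0.13. On these values the ratio in gh18 lies between those of gh03 and gh15, both *Robo1+/+*. How often other gene pairs separate the genotypes was not examined.

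*Kit* (kgCluster19037; chr5:75970941-76052747, plus strand), the receptor for stem cell factor, was the steadiest of the set. Its counts, normalized as above, were 5644, 5430 and 4762 in the wild-type and 4209, 5272 and 5038 in the knockout libraries. The highest library was gh03 and the lowest gh06, and the 2 differed by 1.34-fold. *Kit* had a log2 fold change of −0.13 (SE 0.19, 95% interval −0.58 to 0.33), limma gave an adjusted p of 0.87, and the exact permutation p was 0.40, two-sided. This interval leaves room for a fold between 0.67 and 1.26. The difference stayed negative under every alternative run, from −0.23 with the GC correction to −0.03 with a library left out. The ligand gene *Kitl* was at 36.4 RPKM in the same libraries, and had a log2 fold change of 0.52 ± 0.30 (SE; limma, adjusted p = 0.86), which was 0.16 with the GC correction. Its value was 5144 in gh18 and between 2163 and 2937 in the other 5 libraries.

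*Prom1* (kgCluster18886; chr5:44384864-44493271, minus strand) encodes prominin 1 (CD133), a pentaspan protein of membrane protrusions. *Prom1* values were 809, 2356 and 2476 in the wild-type and 5012, 3523 and 1563 in the knockout libraries. *Robo1-/-* replicates gh06 and gh12 lay above every *Robo1+/+* library, while gh18 lay below gh09 and gh15, and the highest library exceeded the lowest 6.19-fold. The estimate for *Prom1* was a log2 fold change of 0.85 (SE 0.57, 95% interval −0.51 to 2.20), limma gave an adjusted p of 0.86, and the exact permutation p was 0.40, two-sided. It depended on single libraries of both genotypes. It was 1.32 without gh18 (unadjusted p = 0.033, adjusted p = 0.94 from limma), 0.48 without gh06 and 0.32 without gh03. With the GC correction it was 0.64, and 1.29 when gh18 was left out as well. The ratio of *Prom1* to *Kit* spanned 0.143 to 0.520 in the wild-type and 0.310 to 1.19 in the knockout libraries, which overlap (two-sided exact permutation test, p = 0.40; chosen after the values were seen). The span of an annotated gene, *Gm16401*, overlaps that of *Prom1*, and whether their exons share bases was not examined. The library kit used does not keep strand, so reads from any shared bases could not be told apart by strand. No stretch of the *Prom1* transcript aligned elsewhere in the genome within the limits used, and the same held for *Kit*, *Epcam*, *Aldh1a3*, *Cd44* and *Procr*.

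*Ly6a* (kgCluster8527; chr15:74825308-74828064, minus strand) encodes the lipid-anchored Sca-1 antigen. *Ly6a* values were 2533, 4148 and 3700 in the wild-type and 3971, 5112 and 2397 in the knockout libraries. Both the highest and the lowest library were *Robo1-/-*. For *Ly6a* the log2 fold change was 0.11 (SE 0.34, 95% interval −0.69 to 0.90), limma gave an adjusted p of 0.93, and the exact permutation p was 0.80, two-sided. It was 0.41 without gh18 and changed sign without gh03 (−0.10), without gh12 (−0.13) and with the GC correction (−0.0082). A stretch of 106 bases of the *Ly6a* transcript (12.9% of it) aligned to *Ly6c1*, whose mean level was 21.5 RPKM against 323 for *Ly6a*.

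*Aldh1a3* (kgCluster22985; chr7:73535778-73572403, minus strand) makes retinoic acid from retinaldehyde. *Aldh1a3* values were 1972, 6377 and 6008 in the wild-type and 5150, 6865 and 5425 in the knockout libraries. The values of 5 libraries lay between 5150 and 6865, and *Robo1+/+* replicate gh03 was far below them. The log2 fold change was 0.45 (SE 0.46, 95% interval −0.64 to 1.53), limma gave an adjusted p of 0.86, and the exact permutation p was 0.80, two-sided. Without gh03 it was −0.10, without gh09 0.74 and without gh15 0.70. The GC correction left it at 0.42, while edgeR and DESeq2 on the recovered reads gave 0.28 and 0.29.

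*Cd44* (kgCluster14358; chr2:102651298-102741822, minus strand), the hyaluronan receptor, had normalized read counts of 1816, 3946 and 2925 in the wild-type and 2706, 2845 and 7023 in the knockout libraries. A single library, gh18, was far above the others, and the remaining *Robo1-/-* libraries lay within the *Robo1+/+* range. For *Cd44* the log2 fold change was 0.46 (SE 0.45, 95% interval −0.61 to 1.52), limma gave an adjusted p of 0.86, and the exact permutation p was 0.60, two-sided. It was 0.01 without gh18, 0.15 without gh03 and 0.22 with the GC correction. After the correction gh18 was still 0.73 above the log2 mean of the other 5 libraries, against 1.34 before it. An annotated U6 small RNA gene lies within *Cd44*.

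*Cd55* (kgCluster810; chr1:132335604-132359321, minus strand) encodes decay-accelerating factor, which protects cells from complement. Its normalized read counts were 933, 1325 and 1526 in the wild-type and 1332, 1324 and 2237 in the knockout libraries. Replicate gh18 was again the highest and gh03 the lowest. *Cd55* differed by a log2 fold change of 0.35 (SE 0.30, 95% interval −0.36 to 1.07), limma gave an adjusted p of 0.86, and the exact permutation p was 0.50, two-sided. It became 0.10 without gh18, 0.15 without gh03 and 0.02 with the GC correction. *Cd55* had the lowest GC content of the 9 markers (40.4%), and its excess in gh18 went from 0.81 to −0.07 on the log2 scale with the correction. The neighboring gene *Daf2* shares sequence with *Cd55*. Other sequence on chromosome 1 matched 43.7% of the *Cd55* transcript, at 97.1% identity in the longest stretch of 407 bases, but *Daf2* had at most 38 reads in a library. The span of an annotated gene, *Gm16083*, also overlaps that of *Cd55*, and shared exon bases were not examined.

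*Procr* (kgCluster15221; chr2:155576853-155581207, plus strand) encodes the endothelial protein C receptor. It was covered by 3, 9 and 12 reads in the wild-type and 7, 7 and 3 reads in the knockout libraries, or 3.82, 7.05 and 11.3 and 8.06, 6.41 and 4.38 normalized read counts. All 6 values were at or a little above 3 reads, the smallest number taken as detected, and the wild-type and knockout ranges overlapped (exact permutation p = 0.90, two-sided). *Procr* did not pass the filter on low reads and was not tested by limma. At this depth a difference between the genotypes was not detectable.

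Over the set, 8 of the 9 markers were tested, and 6 of them had a positive and 2 a negative log2 fold change. No marker had an adjusted p under 0.05, nor did any of the 13692 genes (0%) from limma or edgeR; DESeq2 called 1 gene, which was no marker. *Cd24a* was the 1 marker with an unadjusted p under 0.05 in limma, beside 231 of all tested genes (1.69%), of which 105 (0.767%) were higher in *Robo1-/-* libraries. edgeR and DESeq2 also gave *Cd24a* alone of the markers an unadjusted p under 0.05 (0.019 and 0.0078). At an unadjusted p under 0.05 and an absolute log2 fold change over 1 there was no marker, beside 115 of all genes (0.84%). The median log2 fold change of the 8 tested markers was 0.40, and that of all tested genes was 0.0022. With the GC correction these medians were 0.17 and 0.0034.

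**Figure D2:**
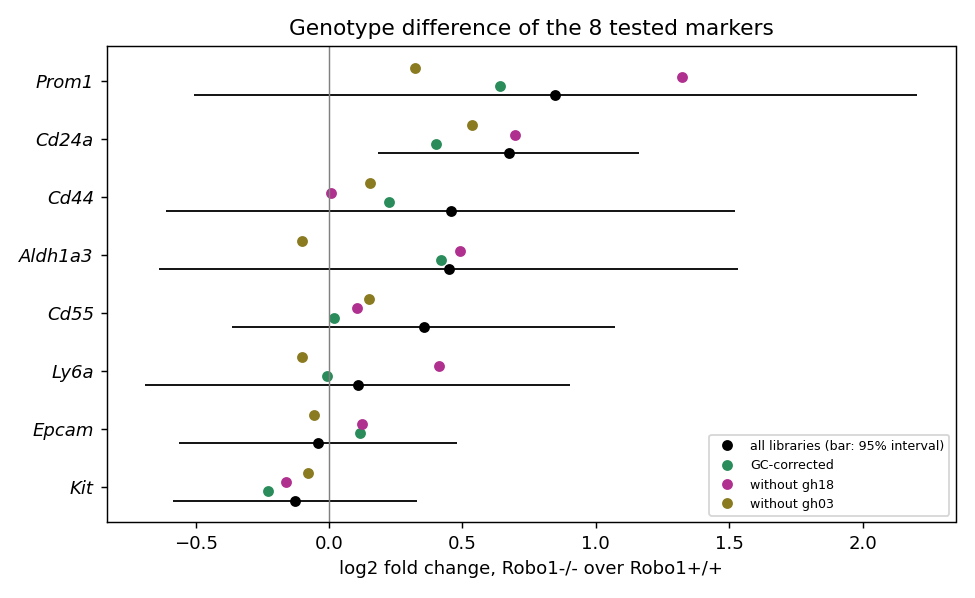
log2 fold change of *Robo1-/-* over *Robo1+/+* (horizontal axis) for the 8 tested markers, with all libraries and the 95% interval from limma (black), after GC correction (green), without gh18 (magenta) and without gh03 (olive). The interval of *Cd24a* (0.18 to 1.16) lies above 0, and the other 7 intervals include 0.

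The markers differed in how much they varied between libraries of the same genotype. The pooled SD within genotypes on the log2 scale was 0.15 for *Kit*, 0.17 for *Cd24a* and 0.21 for *Epcam*, which was smaller than in most genes, since only 5.57%, 7.82% and 13.1% of the tested genes had a smaller one. *Cd55* (0.40) and *Ly6a* (0.47) were near the median of 0.43. *Cd44* (0.68), *Aldh1a3* (0.69) and *Prom1* (0.89) were in the more variable part, and 84.3% of tested genes had a smaller SD than *Prom1*. *Kit* and the general epithelial markers were thus steadier within a genotype than *Aldh1a3*, *Prom1* and *Cd44*.

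Replicate gh03 was the lowest of the 6 libraries in 5 of the 8 tested markers, *Cd24a*, *Prom1*, *Aldh1a3*, *Cd44* and *Cd55*, and in 17.8% of all tested genes. Against the log2 mean of the other 5 libraries it was lower by 1.77 in *Prom1*, 1.59 in *Aldh1a3*, 1.00 in *Cd44*, 0.73 in *Cd24a* and 0.70 in *Cd55*. In *Kit* it was higher by 0.20. With the GC correction *Prom1* was lower by 1.65, *Aldh1a3* by 1.56, *Cd44* by 0.86, *Cd24a* by 0.59 and *Cd55* by 0.52. Replicate gh18 was the highest library in *Cd44* and *Cd55* and the lowest in *Epcam* and *Ly6a*, 4 of 8 markers, whereas it was at one end or the other in 74.5% of all tested genes. The correction brought *Epcam* in gh18 from −0.42 to 0.04 and took *Prom1* from −0.63 to −1.19 and *Ly6a* from −0.66 to −0.95. What set gh03 and gh18 apart was not tested.

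**Figure D3:**
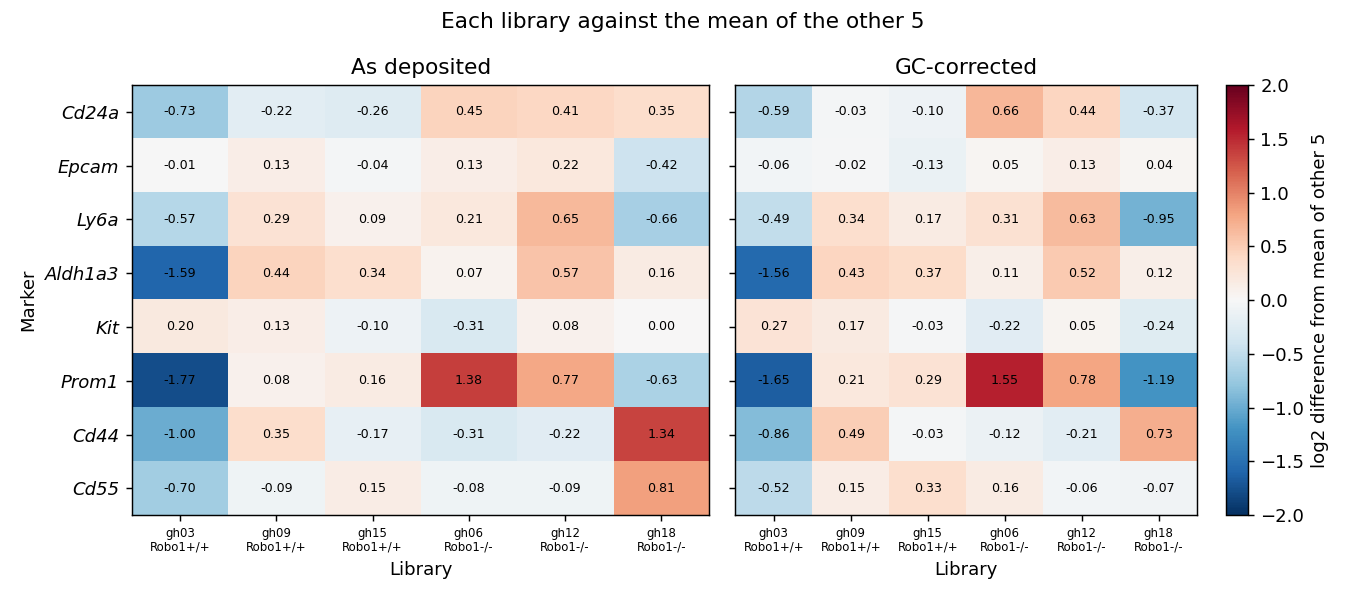
Color and number give the log2 difference of each library (columns) from the mean of the other 5 for the 8 tested markers (rows), as deposited on the left and after GC correction on the right. Replicate gh03 is low in *Prom1* and *Aldh1a3* in both panels (−1.77 and −1.59 as deposited), and the excess of gh18 in *Cd55* (0.81) is absent after correction (−0.07).

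Levels of different genes were compared in RPKM, with the merged exons of a gene as its length. *Cd24a* was the most abundant marker at 671 ± 161 (SD, n = 6; range 441 to 832), followed by *Epcam* at 596 ± 76.0 (449 to 663) and *Ly6a* at 323 ± 90.3 (206 to 449). These ranked 39, 48 and 115 among the tested genes with a length. *Aldh1a3* (83.3 ± 27.2), *Kit* (63.1 ± 7.24), *Prom1* (42.0 ± 23.3), *Cd44* (37.3 ± 18.5) and *Cd55* (21.6 ± 6.07) formed a middle group, and *Procr* was at 0.245 ± 0.0997. *Cd24a* exceeded *Epcam* in 3 of 6 libraries, the *Robo1-/-* ones, so without a GC correction their order differed between the genotypes. *Epcam* and *Ly6a*, *Ly6a* and *Aldh1a3*, and *Cd55* and *Procr* did not overlap in their ranges. *Aldh1a3* exceeded *Kit*, and *Kit* exceeded *Prom1*, in 5 of 6 libraries each, and *Prom1* exceeded *Cd44* in 3 of 6, so these neighbors overlapped. *Cd44* was above *Cd55* within each of the 6 libraries although their ranges overlapped.

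**Figure D4:**
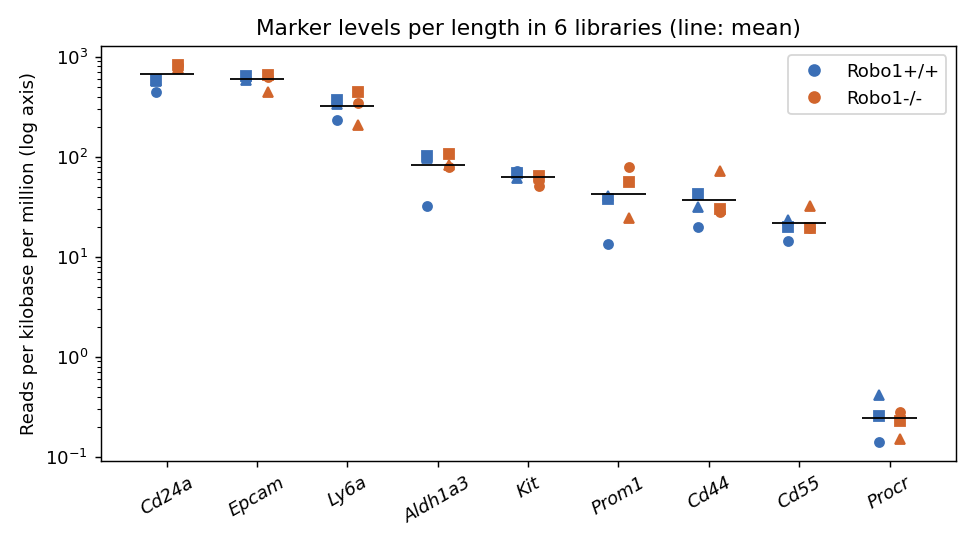
RPKM (vertical log axis) of the 9 markers in order of their mean (black line) over 6 libraries, *Robo1+/+* in blue and *Robo1-/-* in orange, with circles for gh03 and gh06, squares for gh09 and gh12 and triangles for gh15 and gh18 (shared symbols do not pair libraries). *Cd24a* and *Epcam* lie near 600, and *Procr* (0.245) lies far below the other 8.

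The genes whose log2 values followed each marker most closely over the 6 libraries were sought among 11486 genes with a mean of at least 50 normalized read counts. These correlations are descriptions, since the 6 points share library-wide trends such as that of gh18. They are also the highest of 11486 values over 6 points, and a search of this size can find a very high r among unrelated genes. How high it would be without a relation was not examined. *Cd24a* was followed by *Capsl* (Pearson's r = 0.99, and 0.99 after GC correction) and *Ednra* (0.98 and 0.84). For *Prom1* they were *Ctr9* (0.99 and 0.98) and *Ube4b* (0.98 and 0.52), for *Kit* *Aim2* (0.97 and 0.89) and *Laptm4b* (0.95 and 0.78), and for *Epcam* *Kdelr1* (0.99 and 0.85) and *Gtpbp5* (0.99 and 0.46). *Ly6a* went with *Nudt13* (0.998 and 0.98) and *Plcg2* (0.997 and 0.59), *Aldh1a3* with *4931406P16Rik* (0.99 and 0.87) and *Rsu1* (0.99 and 0.54), *Cd44* with *Hipk1* (0.99 and 0.86) and *Suv420h1* (0.99 and 0.38), and *Cd55* with *Wdr20a* (0.998 and 0.97) and *Zfp945* (0.997 and 0.99). Among the markers themselves, *Cd44* and *Cd55* were the closest pair (r = 0.92, 0.55 after GC correction and 0.76 without gh18). For *Epcam* and *Ly6a* r was 0.83 and fell to 0.22 after GC correction, and for *Prom1* and *Ly6a* it was 0.80 and 0.84. For *Cd24a* and *Prom1* it was 0.74, and 0.96 after GC correction, 0.94 without gh18 and 0.37 without gh03. *Kit* and *Prom1* ran in opposite directions (r = −0.72, −0.35 after GC correction).

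The sort also gated on CD29 and CD61 as surface proteins, which RNA does not measure. *Itgb1* (CD29) had a log2 fold change of 0.20 and *Itgb3* (CD61) of 0.60 (SE 0.25 and 0.41; limma, adjusted p = 0.86 for both), and −0.02 and 0.70 with the GC correction. The values of *Itgb3* were 387, 879 and 519 in the wild-type and 618, 1317 and 751 in the knockout libraries, which overlap. The products of *Itga6*, *Itga2* and *Cd14*, an antigen of luminal progenitors, were not part of this gate. The integrins *Itga6* and *Itga2* had log2 fold changes of 0.10 and 0.50 (0.02 and 0.28 with the GC correction), and *Cd14* of −0.57 (−0.37). Replicate gh18 stood apart in *Itga2* (1370 against 271 to 493 in the other 5 libraries) and in *Cd14* (1605 against 3406 to 4353). Of the lineage antigens removed before sorting, *Ptprc* (CD45) had at most 1 read and *Enpep* (BP-1) at most 4 reads in a library, and *Pecam1* (CD31) had a log2 fold change of −0.05 at a mean level of 0.92 RPKM. All 6 tested genes of this group overlapped between the genotypes, and none had an unadjusted p under 0.05.

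Markers of other cell types that the sort could hold were set beside the sort markers. Luminal keratins, *Krt18* (1457 RPKM) and *Krt8* (1449), were the most abundant of the listed markers per length. Their list summed to 101842 to 124104 normalized read counts in the wild-type and 44646 to 127918 in the knockout libraries. *Krt8* was at 11181.5 in gh18 and between 35984 and 43715 in the other libraries. *Krt18* was at 11521.5 in gh18 and between 28162 and 35214 in the others. The median log2 fold change of this list was −0.40 (0.03 with the GC correction). Leukocyte genes were low, with *Cd68* (5.94 RPKM) and *Lyz2* (0.209) the highest. Of 15 listed, 11 had a row, 2 were tested, and their summed normalized read counts were 123 to 164 in the wild-type and 101 to 126 in the knockout libraries. Erythroid genes summed to 58.2 to 261 and 60.5 to 251, and the highest were the 2 clusters of *Hba-a2* (8.39 and 5.45 RPKM). Endothelial genes summed to 1413 to 2504 in the wild-type and 210 to 1732 in the knockout libraries, of which *Vwf* gave 570 to 2167 and 140 to 1054. *Eng*, the highest per length (11.4 RPKM), ranged from 266 to 772 and from 42.3 to 1219, and *Pecam1* was given above. *Eng* had a log2 fold change of −0.78 (−0.14 with the GC correction), and the 4 tested endothelial genes had a median log2 fold change of −1.13 (−0.53 with the GC correction). Fibroblast genes, of which *Dcn* (18.0 RPKM) and *Postn* (8.5) were the highest, summed to 1386 to 2551 and 851 to 3328. Basal genes summed to 6029 to 8317 and 6721 to 8561, of which *Itga6* gave 5054 to 6790 and 4887 to 7210. The basal keratins *Krt5* and *Krt14* were named after their values were seen. *Krt5* had a log2 fold change of −1.12 ± 0.52 (SE; limma, adjusted p = 0.86), −0.57 with the GC correction. *Krt14* had 407, 84.7 and 296 normalized read counts in the wild-type and 245, 74.2 and 68.6 in the knockout libraries (limma, adjusted p = 0.86). Both overlapped between the genotypes, and other basal genes went the other way. The 13 tested basal genes ran from a log2 fold change of −1.12 to 1.19, with a median of 0.10 (0.04 with the GC correction). The 13 mature luminal genes, a list that holds *Ly6a* and *Prom1*, summed to 56723 to 79629 and 72523 to 93598, and the 14 tested luminal progenitor genes, which hold *Kit* and *Aldh1a3*, to 85532 to 110557 and 76661 to 132298. In every library, 4 leukocyte genes (among them *Ptprc* and *Tyrobp*) and 2 endothelial genes (*Cdh5* and *Cldn5*) had under 3 reads. The part of these cell types in the marker results was not tested.

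The families and partners of the markers were examined as lists, by counts and medians beside the median of 0.0022 over all tested genes. In the Ly6 family, 10 genes were tested with a median log2 fold change of −0.34 (−0.12 with the GC correction), and none had an unadjusted p under 0.05. Its most abundant members were *Ly6e* (585 RPKM) and *Ly6d* (374). *Ly6d* ranged from 179 normalized read counts in gh18 to 5775 in gh06. The 25 tested aldehyde dehydrogenases had a median of −0.29 (−0.11 with the GC correction) and none with an unadjusted p under 0.05. *Aldh1a3* was the most abundant of them per length and *Aldh3a2* the next (33.6), while *Aldh1a1*, chosen after its values were seen, was at 0.77.

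The complement regulators, to which *Cd55* belongs, had 9 tested genes with a median log2 fold change of 0.40 (0.21 with the GC correction) and none with an unadjusted p under 0.05. The most abundant were *Clu* (270 RPKM), with a log2 fold change of −0.52 that was −0.10 with the GC correction, and *Cr1l* (37.5 RPKM), with 0.36 and 0.14. *Clu* was at 5530 in gh18 and between 12938 and 15740 in the other 5 libraries. The 19 tested genes of Kit ligand and signaling had a median of 0.12 (0.03 with the GC correction). Of these genes, 1 had an unadjusted p under 0.05, beside 1.69% of all tested genes. This was *Pik3r1*, the regulatory subunit of PI3 kinase. Its log2 fold change was 0.58 ± 0.24 (SE; limma, adjusted p = 0.86), 0.37 with the GC correction. It was higher in all 3 *Robo1-/-* libraries, as were 4.83% of all tested genes. The hyaluronan and CD44 partners (17 tested, median −0.17, −0.02 with the GC correction) had no gene with an unadjusted p under 0.05. Their most abundant member was *Spp1*, osteopontin, a secreted ligand of CD44, with 1454, 6222 and 8081 normalized read counts in the wild-type and 7225, 23668 and 13688 in the knockout libraries. The log2 fold change of *Spp1* was 1.67 ± 0.71 (SE; limma, adjusted p = 0.86), 1.40 with the GC correction, and its values overlapped. *Ezr*, which links CD44 to actin, was at 320 RPKM with a log2 fold change of −0.38 (−0.22 with the GC correction).

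The EpCAM and prominin partners (15 tested) had a median of −0.08 (−0.04 with the GC correction). For the partners of the protein C receptor (7 tested) the median was −0.34 (−0.05 with the GC correction). These lists held no gene with an unadjusted p under 0.05. Their most abundant genes other than *Epcam* were *Cd9* (434 RPKM), *F3* (347) and *Sdc1* (79.7), with log2 fold changes of −0.21, 0.61 and −0.56 (−0.40, 0.43 and −0.18 with the GC correction). The 19 tested genes of other progenitor surface antigens had a median of −0.25 (−0.04 with the GC correction). Of these genes, 1 was higher and 2 lower at an unadjusted p under 0.05. This compares with 0.767% of all tested genes higher and 1.69% in either direction. *Cd200*, an immunoglobulin-family surface protein, had 2060, 2500 and 2257 normalized read counts in the wild-type and 5926, 3663 and 3057 in the knockout libraries. Its log2 fold change was 0.84 ± 0.28 (SE; limma, adjusted p = 0.86), 0.60 with the GC correction. The genotypes did not overlap, with every *Robo1-/-* library higher, as in 4.83% of all tested genes. *Cd74*, the invariant chain of class II antigen presentation, was past both thresholds at a low level (91.6, 47.8 and 133 against 27.6, 26.6 and 23.4), with a log2 fold change of −1.66 ± 0.44 (SE; limma, adjusted p = 0.86), −1.14 with the GC correction. *Icam1*, a leukocyte adhesion molecule, had a log2 fold change of −0.91 ± 0.29 (SE; limma, adjusted p = 0.86), −0.49 with the GC correction. Both *Cd74* and *Icam1* were lower in every *Robo1-/-* library than in any *Robo1+/+* library. The share of all tested genes lower in this way was not counted. *Cd200*, *Icam1* and *Pik3r1* were named after their values were seen.

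**Figure D5:**
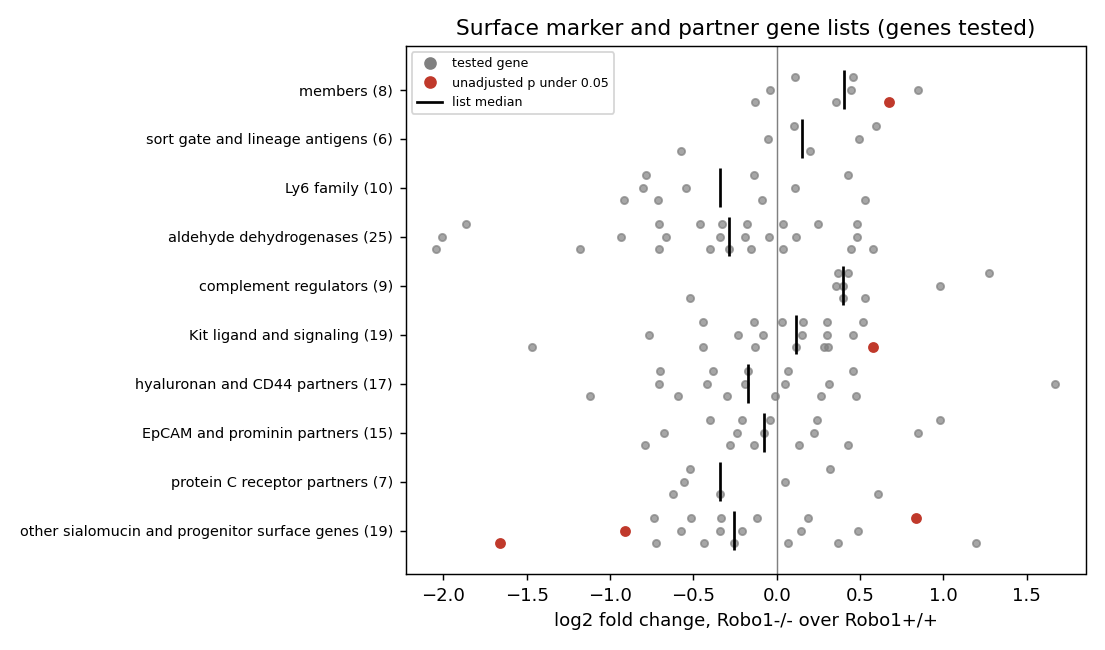
log2 fold change of *Robo1-/-* over *Robo1+/+* (horizontal axis) of each tested gene in the marker set and 9 related lists (rows, with the number tested), with a black line at each list median and red points for an unadjusted p under 0.05 from limma. *Cd24a* (0.67) is the red point of the marker set, and *Pik3r1*, *Cd200*, *Cd74* and *Icam1* are the others.

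Among the cell type lists, *Hey1*, a Notch target, was the luminal progenitor gene past both thresholds (log2 fold change 1.12, standard error 0.41, adjusted p = 0.86 from limma), with values that overlapped, since gh18 (708) was below gh03 (743). *Csn3*, a milk protein of the same list, and *Pgr*, the progesterone receptor of the mature luminal list, had unadjusted p under 0.05 with log2 fold changes of 0.85 and 0.76, and both were higher in all 3 *Robo1-/-* libraries. They were named after their values were seen. *Kit* and *Aldh1a3*, with log2 fold changes of −0.13 and 0.45, and *Ly6a* and *Prom1*, with 0.11 and 0.85, stood beside them in these lists without passing. With the GC correction the log2 fold changes were 1.11 for *Hey1*, 0.46 for *Csn3* and 1.23 for *Pgr*. Of all tested genes, 0.84% were past both thresholds and 0.767% were higher in *Robo1-/-* libraries at an unadjusted p under 0.05 (limma). In 4.83% the *Robo1-/-* libraries all lay above the *Robo1+/+* libraries. Both lists held genes in either direction. Log2 fold changes ran from −0.93 to 1.12 in the luminal progenitor list (median 0.33, 0.32 with the GC correction). In the mature luminal list they ran from −2.94 to 0.85 (median 0.19, 0.11 with the GC correction).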

How the data were processed

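Poly(A)+ RNA of sorted luminal progenitors was sequenced, in 3 libraries per genotype of 2 animals each, with the TruSeq RNA kit. The markers and lists were chosen with earlier results of these data known. The authors trimmed reads to 75 bases, removed reads from repeat elements and aligned what was left with TopHat on NCBI37/mm9. The submitters' processing notes name Bowtie, TopHat, SAMtools and DESeq. The deposited values are a normalized signal, that is, the reads of each known-gene cluster over the size factor of the library. The counting tool, whether it used strand and how it treated multi-mapping reads are not given in the sources used here.

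The values of 18537 clusters were returned to whole reads; 100% of the 111222 values were whole within a tolerance of 0.006 on the deposited scale. Depth was 9727191 to 17433868 reads per library. A minimum of 3 reads counted as detection, which covers counting error only. Normalized values were tested with limma 3.58.1 (R 4.3.3) on log2(value + 1), with a trended empirical Bayes prior, over the 13692 genes that passed filterByExpr of edgeR 4.0.16 (adjusted p by Benjamini-Hochberg), with genotype as the only term. A fold change on this scale understates the change of low genes. Nothing says that the libraries of a genotype were separate litters or days, so p-values measure the spread between these samples. Single genes were also tested by two-sided exact permutation over the 6 libraries (scipy 1.17.1).

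Alternatives were TMM scaling, edgeR's quasi-likelihood test and DESeq2 1.42.0 on the recovered reads, 2 other filters (any gene with a read, or a minimum of 10 reads throughout), 2 other pseudocounts (0.5 and 5), omission of single libraries, and a GC correction. The correction subtracted, per library, a lowess curve (span 0.3) of log2 deviation on transcript GC content. A GC value was found for 91.5% of tested genes, and 16482 clusters (88.9%) were matched to GENCODE release M1, which gave positions on NCBI37/mm9, lengths and GC content. Copies were sought by aligning each marker transcript to that genome, with at least 75 bases at 95% identity. The scripts were tested on simulated data. Named were all markers, *Robo1*, the genes of the sort antigens, and from each list the 2 genes with the highest level per length and up to 5 past the thresholds; for likeness, the 2 genes with the highest r.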

Additional observations from a re-analysis of the deposited data

How the results depend on the processing

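With 3 libraries per genotype, the 95% intervals of *Prom1*, *Ly6a*, *Aldh1a3*, *Cd44* and *Cd55* reached folds of 1.87 to 4.61 in *Robo1-/-* luminal progenitors, and depth limited *Procr*. Of 120 log2 fold changes of the 8 tested markers under the alternatives, 111 kept their sign and their side of an adjusted p of 0.05, and 9 changed sign. The lowest adjusted p of a marker under any setting was 0.55 (limma, *Cd24a* without gh06). *Epcam* changed sign with the GC correction (0.12), without gh09 (0.00053), without gh18 (0.12) and with the GC correction and gh18 left out (0.13), an alternative chosen after the values were seen. *Ly6a* did so with the GC correction (−0.0082), without gh03 (−0.10) and without gh12 (−0.13), *Aldh1a3* without gh03 (−0.10) and *Cd44* with the GC correction and gh18 left out (−0.027). *Aldh1a3* kept its sign but moved by over 1.5 times with edgeR (0.28) and DESeq2 (0.29). The cause was not tested.

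With each library left out in turn, log2 fold changes ran from 0.54 to 0.75 for *Cd24a*, −0.20 to −0.03 for *Kit*, −0.14 to 0.12 for *Epcam*, 0.32 to 1.32 for *Prom1*, −0.13 to 0.41 for *Ly6a*, −0.10 to 0.74 for *Aldh1a3*, 0.01 to 0.71 for *Cd44* and 0.10 to 0.51 for *Cd55*. *Cd24a* had an unadjusted p under 0.05 in 14 of 15 alternatives, the exception being the GC correction. The number of markers with an unadjusted p under 0.05 was 1, and 0 with the GC correction, 2 with the correction and gh18 left out, and 1 to 2 with a library left out. The number past both thresholds was 0, 1 with the GC correction and gh18 left out and 0 to 1 with a library left out; the marker added without gh18 was *Prom1*. Over all genes, the number past both thresholds was 115, and 178 with DESeq2, 304 with all genes of at least 1 read, 59 with the GC correction, 182 with the correction and gh18 left out, and 85 to 653 with a library left out (653 without gh06 and 205 without gh18). DESeq2 gave 1 gene with an adjusted p under 0.05, against 0 from limma. With the longest transcript as length, *Aldh1a3* was at 112 and *Cd55* at 33.4 RPKM, and the order of the markers was the same. No paired analysis was run, because the libraries of the genotypes share no replicate numbers and no label pairs them.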
